A study of Mus musculus with 2 samples.

Results

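Arterial-type endothelial cells were 229 of 7332 cells kept from the femoral marrow of 2 mice. Mouse #1 gave 121 of 2750 cells, and Mouse #2 gave 108 of 4582. A barcode was kept if it held at least 1000 genes and at most 15% mitochondrial transcripts. An endothelial cell had at least 5 transcripts of Cdh5, Egfl7 and Emcn together per 10000 transcripts, at least 1 Cdh5 transcript and at most 1 Ptprc transcript. Transcripts were counted as unique molecular identifiers (UMIs). A member was an endothelial cell with more UMIs of Ly6c1, Sema3g and Gja4 together than of Stab1, Stab2 and Gpr182 together. The opposite balance defined 53 sinusoidal-type endothelial cells, 25 in Mouse #1 and 28 in Mouse #2, and 3 endothelial cells had equal sums and entered neither class. The members were chosen by the levels of these 10 genes, so those levels are given below as a description and were not tested.

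Both mice formed a single group with no second condition. Each carried Cxcl12(GFP/+); Cxcl12-iCreER; R26R(tdTomato/+), that is, a GFP gene in place of 1 copy of the chemokine gene Cxcl12, a tamoxifen-inducible Cre recombinase under Cxcl12 control on a bacterial artificial chromosome transgene, and a Cre-dependent red reporter. Tamoxifen was injected at postnatal day 21 and femurs were collected at day 28, after the distal growth plates and the proximal ends had been removed. Sorted cells, about 18000 of them per mouse, were loaded for droplet sequencing with the 10x version of 3′ chemistry named in the labels. The cells are labelled as GFP-positive and the study's methods describe a GFP-high gate, while another label field names tdTomato-positive sorting. Endothelial cells were therefore seen through a sort for GFP, and their share of all marrow endothelium cannot be read from these libraries.

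Endothelial cells line all blood vessels. In marrow, arteries and arterioles enter the bone and branch into capillaries, which open into wide, leaky sinusoids whose lining takes up material from the blood. Arterial identity is known to rest on VEGF and Notch signalling and to be marked by ephrin-B2, and the vessel wall supplies Cxcl12 and stem cell factor, the product of Kitl, to blood stem cells.

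The libraries held 54940400 UMIs in Mouse #1 and 88790688 in Mouse #2. Members had a median of 10223 UMIs and 3193 genes per cell in Mouse #1 and 11227 UMIs and 3329 genes in Mouse #2, with median mitochondrial shares of 2.99% and 2.97%. Sinusoidal-type cells were deeper, with medians of 14656 and 13315 UMIs. Of the kept barcodes, 7 occurred in both libraries, none of them a member's. Levels below are UMIs per 1000000 UMIs of a class (CPM), summed over its cells within each mouse. Each pair of values gives Mouse #1 first. No file states gene length in these values and the chemistry reads transcript ends, so CPM is compared between classes for 1 gene at a time.

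RNA of other cell types was present in some endothelial barcodes. In 9 of 121 members of Mouse #1 and 10 of 108 of Mouse #2, at least 10 UMIs of genes of reticular, neutrophil, mural, osteoblast or B cells were counted. The same was true of 6 of 25 sinusoidal-type cells in Mouse #1 and of 15 of 28 in Mouse #2. These cells are called mixed here, and each leading count below was repeated without them, a choice made after the data were seen. A single member of Mouse #1 held 7696 of the 8056 UMIs of S100a8, S100a9 and Lyz2 in its class, which is 95.5%. The same cell held 376 of 432 UMIs of Rgs5, Acta2 and Myh11, genes of the muscle cells around vessels. The reticular genes Adipoq, Lepr, Gdpd2 and Hp summed to 120 and 236 CPM in members, against 591 and 1477 CPM in sinusoidal-type cells.

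**Figure D1:**
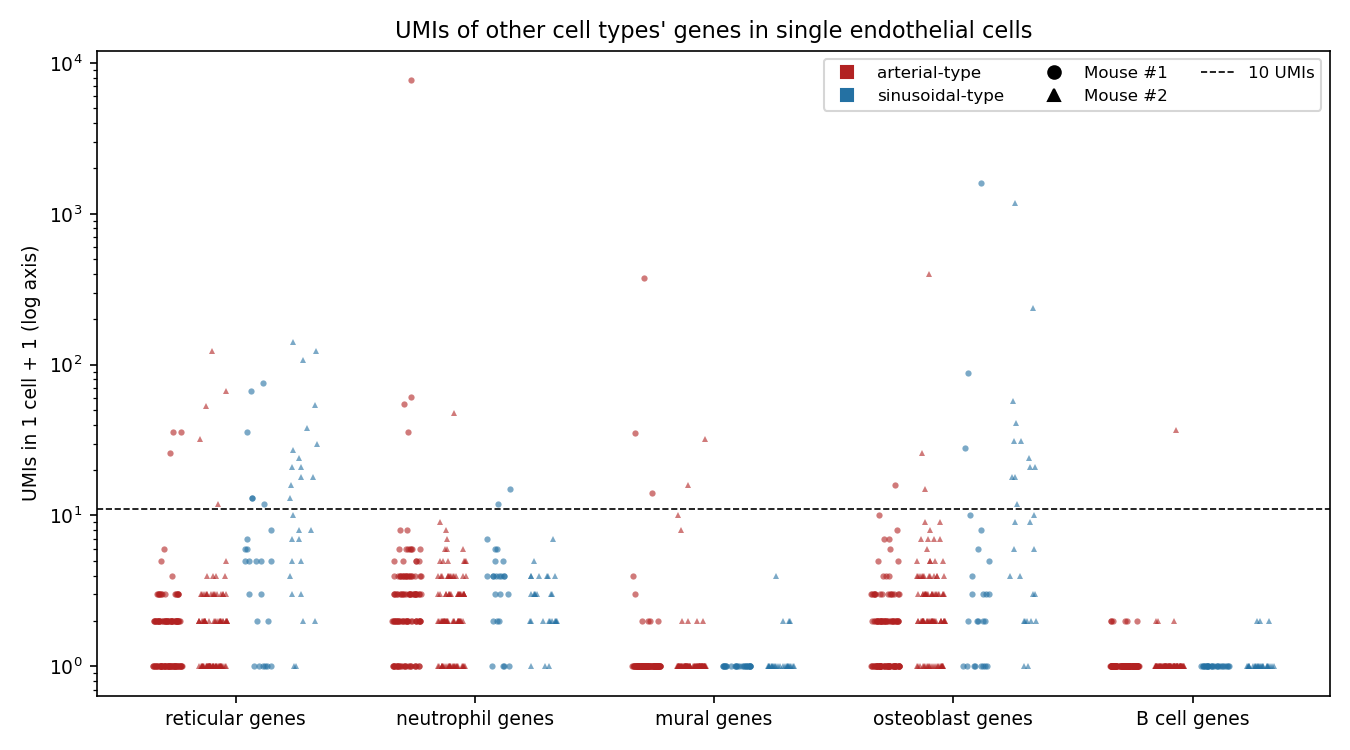
UMIs per endothelial cell (plus 1, log axis) of genes of 5 other cell types, for arterial-type and sinusoidal-type cells of each mouse. Each point is 1 cell and the dashed line marks 10 UMIs, at or above which 19 of 229 arterial-type and 21 of 53 sinusoidal-type cells had 1 or more of the 5 sums.

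The genes of the rule and the remaining given markers were picked with these data known, so their levels describe the members and are no check of the label. Ly6c1, a small surface protein of endothelium and blood cells, was at 2295 and 1574 CPM in members, against 18.2 and 34.2 in sinusoidal-type cells. Its near copy Ly6c2 was at 4.02 and 0.66 CPM in members but at 1002 and 761 in blood cells, where Ly6c1 was at 3.06 and 3.67 CPM. Whether reads of such near copies were split between them by the counting was not tested. Sema3g, a secreted semaphorin, was at 455 and 337 CPM in members and at 0 in sinusoidal-type cells of both mice. Gja4, a gap junction protein, was at 509 and 552 CPM and was likewise at 0 in the sinusoidal-type sums. The scavenger receptor genes went the other way by construction. Stab2 was at 3.35 and 2.64 CPM in members against 970 and 728 CPM, and Stab1 at 71.0 and 61.4 CPM against 852 and 706. Gpr182, a receptor of sinusoidal lining, was at 9.37 and 6.61 CPM against 277 and 197. The endothelial gate gene Cdh5, the cadherin of endothelial junctions, was at 1216 and 1244 CPM in members.

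Among the markers outside the rule, Stmn2, which encodes a microtubule regulator best known from neurons, was at 470 and 497 CPM in members and at 0 in the sinusoidal-type sums of both mice. Podxl, a sialomucin of the luminal surface, was at 687 and 635 CPM against 27.3 and 34.2. Rbp7, a retinol-binding protein, stood at 424 and 232 CPM against 4.54 and 10.7. Mecom, a zinc finger transcription factor, was at 368 and 279 CPM against 0 and 4.28. All 4 were higher in members in both mice, which goes with their having been picked with these data known. The 7 given markers lie on chromosomes 15 (Ly6c1), 14 (Sema3g), 4 (Gja4 and Rbp7), 3 (Stmn2 and Mecom) and 6 (Podxl) of GRCm38, so no single locus carries them.

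**Figure D2:**
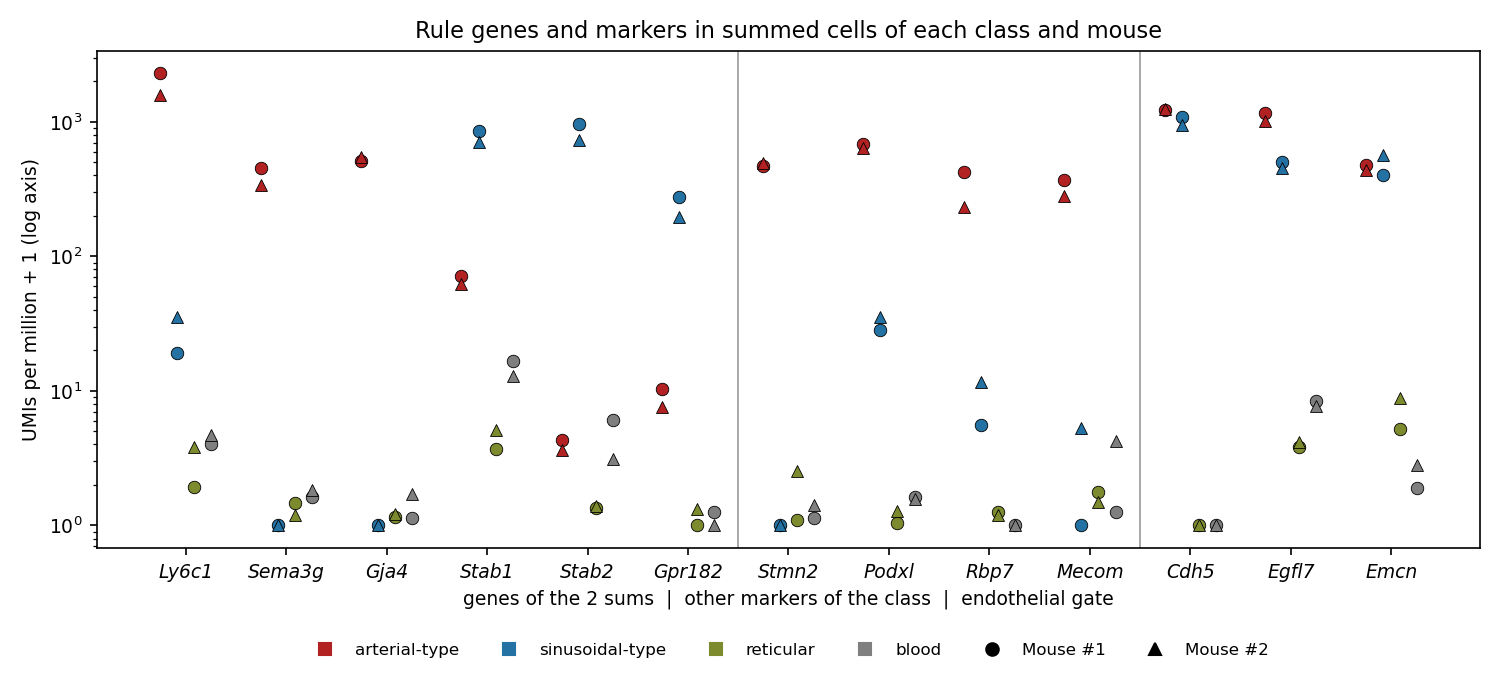
Level of the genes of the rule and of the given markers (CPM plus 1, log axis) in the summed arterial-type, sinusoidal-type, reticular and blood cells of Mouse #1 (circles) and Mouse #2 (triangles). Ly6c1, Sema3g, Gja4, Stmn2, Podxl, Rbp7 and Mecom sit highest in the arterial-type sums, while Cdh5, Egfl7 and Emcn are shared by both endothelial classes.

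Most members lay far from the dividing line. The Ly6c1, Sema3g and Gja4 sum exceeded the other sum by a median of 37 UMIs in Mouse #1 and 30 in Mouse #2, up to 153 and 128. At the line itself, 3 members of Mouse #1 and 2 of Mouse #2 were ahead by only 1 or 2 UMIs, and 1 sinusoidal-type cell in each mouse was behind by as little. No UMI of Stab1, Stab2 or Gpr182 was counted in 71 and 55 members. To compare shares of cells at 1 depth, every cell was thinned to 2000 UMIs. At that depth Ly6c1 was found in 88.4% and 87.0% of members, Gja4 in 57.0% and 56.5%, Sema3g in 58.7% and 41.7%, and Stmn2 in 33.9% and 38.0%. Stmn2 was found in 61.2% and 54.6% of members before thinning. Ly6c1 thus marked most members, whereas Stmn2 was found in a part of them.

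Members were 82.3% of the endothelial cells of Mouse #1 (95% Wilson interval 75.3–87.6) and 78.3% of those of Mouse #2 (70.7–84.3), with a mean of 80.3% ± 2.87 (SD, n = 2 mice). The intervals cover counting error only, and those of the mice overlap. As a share of all kept cells, members were 4.40% (3.70–5.23) and 2.36% (1.96–2.84). The share of endothelial cells rose to a mean of 85.8% without mixed cells and to 91.9% without cells with 3 or more UMIs of the 4 reticular genes. These steps took out more of the sinusoidal-type cells than of the members, leaving 19 and 13 sinusoidal-type cells in the first case and 10 and 6 in the second.

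The first comparison asked which other genes went with the split between arterial-type and sinusoidal-type cells. UMIs were summed per mouse and class and tested with edgeR's quasi-likelihood test. Since the classes were cut by expression in the same cells, a call says that a gene moved with the split in both mice. It is no evidence that the classes exist. The p-values measure the spread between 2 mice. Of 8501 genes tested, 703 were called higher in members (8.27%) and 858 lower (10.1%), 1561 in all (18.4%), at a Benjamini-Hochberg adjusted p under 0.05. The counts of the lists below are to be read beside these shares. Every call had the same sign in both mice, and the median log2 difference over all tested genes was 0.02. Without mixed cells, 506 of the 703 higher calls and 576 of the 858 lower calls were made again. Dropping the filter on low counts left 520 calls and ended those of 44 of the named genes. How far reticular RNA in the sinusoidal-type sums enters single calls was not tested beyond the repeats that left out cells holding it.

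Of the genes with the largest differences in favour of members, most had no UMI in the sinusoidal-type sums, so that their fold is a lower bound set by a floor of 3 UMIs over both mice. Stmn2, a given marker picked with these data known, was at least 146-fold higher on this measure. Egfl8, a secreted relative of the endothelial factor Egfl7, was at 192 and 216 CPM and at least 61.7-fold higher. Gja5, a gap junction protein of arteries, was at 114 and 158 CPM, a difference of at least 41.1-fold. Car7, a carbonic anhydrase, was at 122 and 108 CPM (at least 34.7-fold), and Dkk2, a Wnt modulator, at 89.7 and 116 CPM (at least 31.1-fold). The Notch ligand gene Jag2 was at 112 and 70.7 CPM, at least 27.7-fold higher. Fbln2, an extracellular matrix glycoprotein, was among the most abundant of these genes. Its level was 987 and 824 CPM in members, and 1 UMI was counted in all sinusoidal-type cells, a ratio of 821 with a counting interval of 147 to 32433. Ptprr, St8sia6, Aif1l, Nov and Slc26a10 followed, at 43.6 to 99.1 CPM in members and at 0 in the sinusoidal-type sums, with bounds from 18.0-fold to 26.4-fold.

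In the other direction, Fgf23, the hormone that lowers blood phosphate, had no UMI in any member and was at 245 and 169 CPM in sinusoidal-type cells, at least 207-fold lower in members. Adgrg6, an adhesion receptor, was at 0 and 0.66 CPM in members against 348 and 259 CPM. Sema3a, a repulsive guidance cue, was at 0.67 and 0.66 CPM against 507 and 265. The viral entry receptor gene Cxadr was at 0 and 2.64 CPM against 400 and 267. Selp, the P-selectin gene through which leukocytes roll on vessel walls, was at 4.02 and 7.27 CPM against 577 and 640, a log2 difference of −6.81 ± 0.30 (SE, adjusted p = 8.55e-05). All of the Selp UMIs of members came from 1 cell in each mouse. Dnase1l3, a secreted DNase, differed by −6.61 ± 0.28 (adjusted p = 8.55e-05), from 7.36 and 5.28 CPM to 664 and 518. The mannose receptor gene Mrc1 was at 10.7 and 4.62 CPM against 934 and 715. These genes were named for the size of their difference. Crygn, Ubd, Rgs4 and Slc16a9 were also among the genes with the largest negative differences. Each was at or below 11.2 CPM in members.

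Of 20 arterial genes outside the rule, 19 were tested and all 19 were called higher in members, with a median log2 difference of 2.60. Hey2 was too low to test, at 2.68 and 1.32 CPM in members and 0 in sinusoidal-type cells. The summed level of the list was 10387 and 8974 CPM in members against 2525 and 2806. Calls fell to 18 of the list without mixed cells, 16 without cells with 3 or more reticular UMIs and 10 without the filter on low counts. Sox17, a transcription factor of arterial fate, was at 359 and 332 CPM against 31.8 and 23.5, a log2 difference of 3.55 ± 0.23 (adjusted p = 0.000193). Efnb2, the ephrin-B2 gene, was at 571 and 533 CPM against 81.8 and 34.2, a difference of 3.17 ± 0.34 (adjusted p = 0.00112). Tm4sf1, a tetraspanin-like membrane protein, was the most abundant of the named genes, at 3711 and 3148 CPM against 727 and 832. Edn1, the precursor of the vasoconstrictor endothelin, was at 217 and 165 CPM against 9.09 and 17.1. Bmx, a tyrosine kinase of arterial endothelium, was at 159 and 102 CPM against 9.09 and 2.14, and Eln, elastin, at 238 and 177 CPM against 45.4 and 34.2. Cxcr4, the receptor of Cxcl12, was at 101 and 216 CPM against 0 and 10.7. The smallest log2 difference of the list belonged to Nrp1, a VEGF and semaphorin co-receptor, at 858 and 897 CPM against 491 and 518 (0.71 ± 0.17, adjusted p = 0.0261, or 0.0672 without mixed cells). Each of these values was higher in members in both mice.

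The venous and sinusoidal list held 17 tested genes, of which 14 were lower in members, 1 was higher and 2 were not called, with a median of −3.45. Tfpi, an inhibitor of coagulation, was at 97.7 and 81.9 CPM against 3152 and 2384, a log2 difference of −5.03 ± 0.22 (adjusted p = 8.55e-05). Nr2f2, the transcription factor of venous fate, was at 36.8 and 31.7 CPM against 339 and 315 (−3.34 ± 0.19, adjusted p = 0.000111). Il6st, the shared receptor chain of the interleukin-6 family, was at 201 and 157 CPM against 1909 and 1770. The exception was Vwf, the von Willebrand factor gene, which was higher in members at 46.2 and 39.6 CPM against 4.54 and 2.14 (3.56 ± 0.50, adjusted p = 0.00339). Plvap, a protein of vascular fenestrae, was not called, at 959 and 707 CPM against 1157 and 1091 (adjusted p = 0.109, or 0.00941 with the mouse as a block and 0.0364 without the members of Mouse #1). Ephb4, the receptor of ephrin-B2 in veins, was not called either, at 108 and 87.2 CPM against 75.0 and 113 (adjusted p = 0.926). Of 6 lymphatic markers, Pdpn, Lyve1 and Reln were at 0 in members of both mice. Prox1 was not, with 28 and 35 UMIs in 15 and 20 members. The list summed to 79.0 and 72.7 CPM in members against 936 and 719 in sinusoidal-type cells. Flt4, the lymphatic and sinusoidal VEGF receptor, was at 58.9 and 44.9 CPM in members against 723 and 488 in sinusoidal-type cells.

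Genes of tip cells and of the vessels of growing bone, often called type H, were mostly higher. Of 14 tested, 9 were called higher and 1 lower, with a median of 1.42. With the mouse as a block 9 were higher and 3 lower, and without the filter on low counts none was called. Col4a1 and Col4a2, which encode chains of basement membrane collagen, were at 1943 and 2565 and at 1257 and 1569 CPM in members, against 782 and 1036 and against 425 and 561 in sinusoidal-type cells. Pgf, a VEGF family ligand, was at 43.5 and 214 CPM against 2.27 and 0. Its level in members differed widely between the mice, and the call had an adjusted p of 0.0249 in edgeR, which was 0.0524 and 0.0916 without the sinusoidal-type sum of either mouse. Esm1 and Ramp3 were not called, with adjusted p of 0.0836 and 0.343, although Esm1 passed with the block (0.00148) and Ramp3 at 2000 UMIs per cell (0.0394). Plaur, the urokinase receptor, was the 1 lower gene, a call lost without cells with 3 or more reticular UMIs (adjusted p = 0.872).

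Genes shared by all endothelium split in both directions. Of 22 tested, 7 were called higher and 3 lower, with a median of 0.40, and 9 and 6 with the mouse as a block. Cd34, a surface sialomucin, was at 703 and 733 CPM in members against 4.54 and 27.8, a log2 difference of 5.34 ± 0.48 (adjusted p = 0.000618). Sox18, an endothelial transcription factor, was at 527 and 454 CPM against 84.1 and 94.2 (2.36 ± 0.20, adjusted p = 0.000537). Pecam1 was at 990 and 989 CPM against 534 and 505, a call lost without mixed cells (adjusted p = 0.119). Lower in members were Robo4, Cldn5 and Kdr. Cldn5, a tight junction claudin, was at 1345 and 1131 CPM against 2293 and 2397 (adjusted p = 0.296 without cells with 3 or more reticular UMIs), and Kdr, the main VEGF receptor, at 554 and 468 CPM against 1118 and 721 (adjusted p = 0.032, or 0.122 without the sinusoidal-type sum of Mouse #1). Tek and Flt1 were not called, although Tek was lower in members with the block (−0.69, adjusted p = 0.00818) and without mixed cells (−1.04, adjusted p = 0.0115).

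In the Notch pathway, ligands and receptors differed among themselves. Of 14 genes tested, 6 were called higher and 3 lower, with a median of 0.36. Without cells with 3 or more reticular UMIs, 6 were called higher and none lower of 12, with a median of 1.31. Of the ligands, Dll4 was at 208 and 162 CPM against 61.4 and 34.2 (1.86 ± 0.29, adjusted p = 0.00512), a call lost at 2000 UMIs per cell (0.157). Jag1 was at 180 and 162 CPM against 43.2 and 57.8 (adjusted p = 0.0031). Dll1 went the other way, at 50.9 and 38.3 CPM against 102 and 103 (adjusted p = 0.00916), a call lost without mixed cells (0.114) and without cells with 3 or more reticular UMIs (0.945). Of the receptors, Notch4 was at 174 and 135 CPM against 9.09 and 23.5 (3.12 ± 0.37, adjusted p = 0.00172), while Notch1 was at 370 and 267 CPM against 266 and 124 and was not called (adjusted p = 0.255, or 0.0142 with the mouse as a block). Of the targets, Hey1 was at 118 and 133 CPM against 2.27 and 21.4, and Nrarp at 241 and 164 CPM against 47.7 and 87.7, both called. The Nrarp call was lost without mixed cells (adjusted p = 0.0592). Hes1 was not called. Rbpj, the DNA-binding partner of cleaved Notch, was lower in members, at 54.9 and 55.5 CPM against 97.7 and 118 (adjusted p = 0.0137), a call lost in DESeq2 (0.0656) and without cells with 3 or more reticular UMIs (0.827).

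Of 16 tested genes of the VEGF and angiopoietin pathway, 5 were called higher and 5 lower, with a median of −0.80. The ligand gene Vegfc was higher in members, at 243 and 201 CPM against 9.09 and 74.9 (adjusted p = 0.0329, or 0.304 in DESeq2). Vegfa was lower, at 23.4 and 33.7 CPM against 70.4 and 218 (adjusted p = 0.0162, or 0.456 without cells with 3 or more reticular UMIs), and Angpt1, the Tie2 ligand gene, was at 2.68 and 4.62 CPM against 22.7 and 47.1. The Angpt1 call was lost without the sinusoidal-type sum of Mouse #2 (adjusted p = 0.059). Both were also lower in members than in reticular cells, whose marker genes were higher in the sinusoidal-type sums. The Angpt1 call was not made again without mixed cells or without cells with 3 or more reticular UMIs. Whether reticular RNA enters these 2 differences was not tested beyond these repeats. The co-receptor gene Nrp2 was at 107 and 134 CPM against 436 and 449 (−1.97, adjusted p = 0.000868). Ptprb, a receptor phosphatase that acts on Tie2, was at 1500 and 1248 CPM against 668 and 633, a call lost without cells with 3 or more reticular UMIs (adjusted p = 0.213).

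BMP and TGF-beta genes gave 5 higher and 3 lower calls of 16, with a median of −0.20, and 6 and 6 with the mouse as a block. Tgfb2, a TGF-beta ligand, was at 245 and 164 CPM against 4.54 and 4.28 (5.40 ± 0.42, adjusted p = 0.000364). Id1, a target of BMP signalling, was at 275 and 223 CPM against 45.4 and 34.2, and Tgfbr2 at 392 and 394 CPM against 120 and 156. Tgfbr3, the co-receptor betaglycan, was lower in members at 27.4 and 52.8 CPM against 327 and 327. Bmpr2 was not called (adjusted p = 0.779).

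Genes of vascular tone gave 6 higher and 3 lower calls of 14, with a median of 0.33. Cav1, the coat protein of caveolae, was at 651 and 738 CPM against 0 and 8.56, a log2 difference of 7.17 ± 0.53 (adjusted p = 0.000319). Nos3, endothelial nitric oxide synthase, was at 139 and 117 CPM against 13.6 and 12.8. Ednrb, an endothelin receptor, was at 272 and 217 CPM against 11.4 and 19.3. Thrombomodulin, from Thbd, and the prostaglandin synthase gene Ptgs1 were lower in members, with Thbd at 178 and 178 CPM against 495 and 443. The flow-responsive factors Klf2 and Klf4 were abundant in both classes and were not called, with Klf2 at 1623 and 1603 CPM against 1148 and 1641 (adjusted p = 0.762) and Klf4 at 1468 and 1304 CPM against 1459 and 1143 (adjusted p = 0.998). Without cells with 3 or more reticular UMIs, Klf2 was called higher in members (log2 difference 1.19, adjusted p = 0.0122).

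Junction and barrier genes gave 6 higher and 3 lower calls of 18, with a median of 0.62. Cav2 was at 340 and 279 CPM against 18.2 and 10.7 (4.33 ± 0.29, adjusted p = 0.000218). The gap junction genes went apart, since Gja5 was higher and Gja1 lower in members, the latter at 228 and 266 CPM against 829 and 794 (−1.81, adjusted p = 0.000859). Slc2a1, a glucose transporter of tight endothelium, was at 50.2 and 53.5 CPM in members, below the 134 and 160 CPM of sinusoidal-type cells, a call lost at 2000 UMIs per cell (adjusted p = 0.196).

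Of 18 tested genes of leukocyte adhesion and chemokines, 10 were called lower in members and 4 higher, with a median of −2.26. Without mixed cells 8 were lower and 5 higher of 16, and without cells with 3 or more reticular UMIs 5 were lower and 5 higher of 14, with a median of −0.50. E-selectin, from Sele, was at 3.35 and 1.98 CPM against 116 and 131 (−5.56, adjusted p = 0.000124). Icam1 was at 122 and 81.9 CPM against 509 and 297 (−2.07, adjusted p = 0.00419), and Vcam1 at 83.7 and 125 CPM against 468 and 535 (−2.36 ± 0.24, adjusted p = 0.00103). Madcam1, an addressin, had no UMI in members and was at 59.1 and 10.7 CPM in sinusoidal-type cells, at least 34.3-fold lower. Its call was lost without the filter on low counts (adjusted p = 0.145). It was not made again without mixed cells, without cells with 3 or more reticular UMIs or at 2000 UMIs per cell. Ccl2, a monocyte chemokine, was at 18.7 and 15.2 CPM against 180 and 282, a call lost without cells with 3 or more reticular UMIs (adjusted p = 0.331). The 4 higher genes were Icam2, Cd34, Jam2 and Ackr3. Icam2 was at 577 and 596 CPM against 157 and 116, and Ackr3, the scavenging receptor of Cxcl12, at 31.5 and 60.1 CPM against 4.54 and 6.42, a call lost without the members of Mouse #2 (adjusted p = 0.056).

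Basement membrane and elastic matrix genes were the most uniformly higher list after the arterial one, with 16 of 21 called higher, 2 lower and a median of 1.55. Their summed level was 16209 and 17849 CPM in members against 10078 and 9296. The higher calls fell to 7 without the filter on low counts and to 10 at 2000 UMIs per cell. Ltbp4, a protein that binds latent TGF-beta in elastic fibres, was at 901 and 756 CPM against 15.9 and 14.98 (5.64 ± 0.26, adjusted p = 8.55e-05). Sparcl1, a matricellular protein, was at 885 and 817 CPM against 4.54 and 2.14 (7.86 ± 0.32, adjusted p = 8.55e-05). Col18a1, the collagen that yields endostatin, was at 716 and 915 CPM against 9.09 and 4.28. The 2 lower genes were the proteoglycan gene Bgn and Nid1, the nidogen that links laminin to collagen, the latter at 197 and 178 CPM against 689 and 486. Mgp, an inhibitor of calcification, was at 531 and 193 CPM against 13.6 and 14.98. Its UMIs sat in 33 and 25 members, and in Mouse #2 a single cell held 50.3% of them.

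Scavenging and lysosome genes gave no higher call and 12 lower ones of 15, with a median of −1.73. Without mixed cells 9 were lower and 1 higher of 14, and at 2000 UMIs per cell 9 and 1 of 12. Without the filter on low counts 7 were lower and none higher of 17. Ctsl, cathepsin L, was at 449 and 569 CPM against 2600 and 2003 (−2.27, adjusted p = 0.000626), and Lgmn, a lysosomal protease gene, at 117 and 116 CPM against 866 and 621. Lamp1, a structural protein of lysosomes, was not called (adjusted p = 0.704). Fatty acid and lipid genes split, with 4 higher and 3 lower of 15 and a median of 0.12. With the mouse as a block 5 were lower. Rbp7, a given marker picked with these data known, is among the higher ones. Fabp4, a fatty acid-binding protein of capillaries, was at 2342 and 1310 CPM in members and at 7776 and 7109 CPM in sinusoidal-type cells (−2.12, adjusted p = 0.00215). Tcf15, a transcription factor that works with Meox2 in heart capillaries, was at 111 and 72.7 CPM against 9.09 and 4.28 (adjusted p = 0.00215, or 0.123 at 2000 UMIs per cell). Gpihbp1, which carries lipoprotein lipase to the capillary lumen, was not called, at 465 and 419 CPM against 325 and 321 (adjusted p = 0.206). Lpl, the lipase itself, was lower in members at 62.9 and 93.1 CPM against 614 and 663. Reticular cells express it strongly. The Lpl call was kept without mixed cells and without cells with 3 or more reticular UMIs. Whether reticular RNA enters this difference was not tested beyond these repeats.

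Antigen presentation and interferon genes gave 7 higher calls and 1 lower call of 21, with a median of 0.44, and 9 and 4 with the mouse as a block. Ly6a, the Sca-1 gene, was at 1971 and 1667 CPM against 90.9 and 89.9 (4.24 ± 0.20, adjusted p = 8.55e-05). Isg15 was at 181 and 209 CPM against 68.2 and 55.6, a call lost at 2000 UMIs per cell (adjusted p = 0.105). B2m, the invariant chain of class I molecules, was the lower gene, at 1023 and 1180 CPM against 2747 and 2114 (adjusted p = 0.057 without cells with 3 or more reticular UMIs). Among endothelial transcription factors, 8 of 24 were called higher and 3 lower, with a median of 0.45, and 10 and 5 with the mouse as a block. The lower ones were Nr2f1, Nr2f2 and Foxc1, the last at 33.5 and 52.2 CPM against 302 and 173. Tsc22d1 and Foxp1 were higher, at 819 and 757 CPM against 132 and 220 and at 444 and 376 CPM against 109 and 197, whereas Erg was not called (adjusted p = 0.383). In axon guidance genes 5 were called higher and 8 lower of 19, with a median of −0.72. Efna1 was at 160 and 122 CPM against 31.8 and 25.7 and Unc5b, a netrin receptor, at 151 and 178 CPM against 2.27 and 47.1, both higher (Unc5b at adjusted p = 0.39 in DESeq2), while Nrp2, Robo4 and Sema3a were lower.

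Cell division genes gave 7 higher and no lower calls of 15, with a median of 1.12, but few cells carried them. Cells with at least 5 UMIs of Mki67, Top2a, Cdk1 and Cenpf together were 4 of 121 members (3.31%) and 4 of 108 (3.70%), and they held 87.0% and 96.1% of the UMIs of these 4 genes. None of 25 sinusoidal-type cells of Mouse #1 and 1 of 28 of Mouse #2 passed the same limit. The list fell to 2 higher calls and 1 lower call without mixed cells and to none without the filter on low counts. Of 15 immediate early genes only Ier2 was called, higher in members at 584 and 442 CPM against 191 and 272 (adjusted p = 0.027, or 0.0843 without the sinusoidal-type sum of Mouse #1). With the mouse as a block 4 immediate early genes were called higher. Of 11 heat shock genes Hspa1a and Hspb1 were called, with Hspa1a at 874 and 445 CPM against 205 and 124 (adjusted p = 0.0127). Over all tested genes 18.4% were called, so neither the immediate early nor the heat shock count stands out above that share. The Hspb1 call was lost without the sinusoidal-type sum of Mouse #1 (adjusted p = 0.0538), and with the block 5 heat shock genes were higher and 1 lower. Fos was at 1405 and 1229 CPM against 1520 and 539 and was not called, except without cells with 3 or more reticular UMIs (2.24, adjusted p = 0.000313) and without the sinusoidal-type sum of Mouse #1 (1.18, adjusted p = 0.0103).

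Markers of other cell types moved with the split as well. Of 12 reticular markers none was called higher in members and 9 were called lower, with a median of −2.43 and a summed level of 1047 and 1267 CPM against 2056 and 3895. Of 9 tested osteoblast markers 3 were lower, or 7 with the mouse as a block, and the list summed to 196 and 762 CPM in members against 4635 and 4286. In Mouse #1, 1 sinusoidal-type cell held 1601 of 1756 UMIs of Col1a1, Bglap, Ibsp and Alpl. Without mixed cells, the difference in Col1a1 turned from −4.80 to 0.31 on the log2 scale and was not called, while Alpl was called higher in members (7.39). Of 6 tested mural markers Abcc9, Kcnj8 and Des were lower (1 higher and 4 lower with the block), with Abcc9, which also stands in the venous and sinusoidal list, at 14.1 and 20.5 CPM in members against 838 and 693. No blood marker was called, of 4 tested (2 were higher with the block), although the blood list summed to 5681 and 383 CPM in members against 523 and 336. Megakaryocyte markers were too low to test, at sums of 10.0 and 10.6 CPM in members. Of 3 tested lymphatic markers, Flt4 and Mmrn1 were lower, and Prox1 as well with the block (−1.06, adjusted p = 0.0354). The part these cells play in the differences above was not tested beyond the repeats without them.

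**Figure D3:**
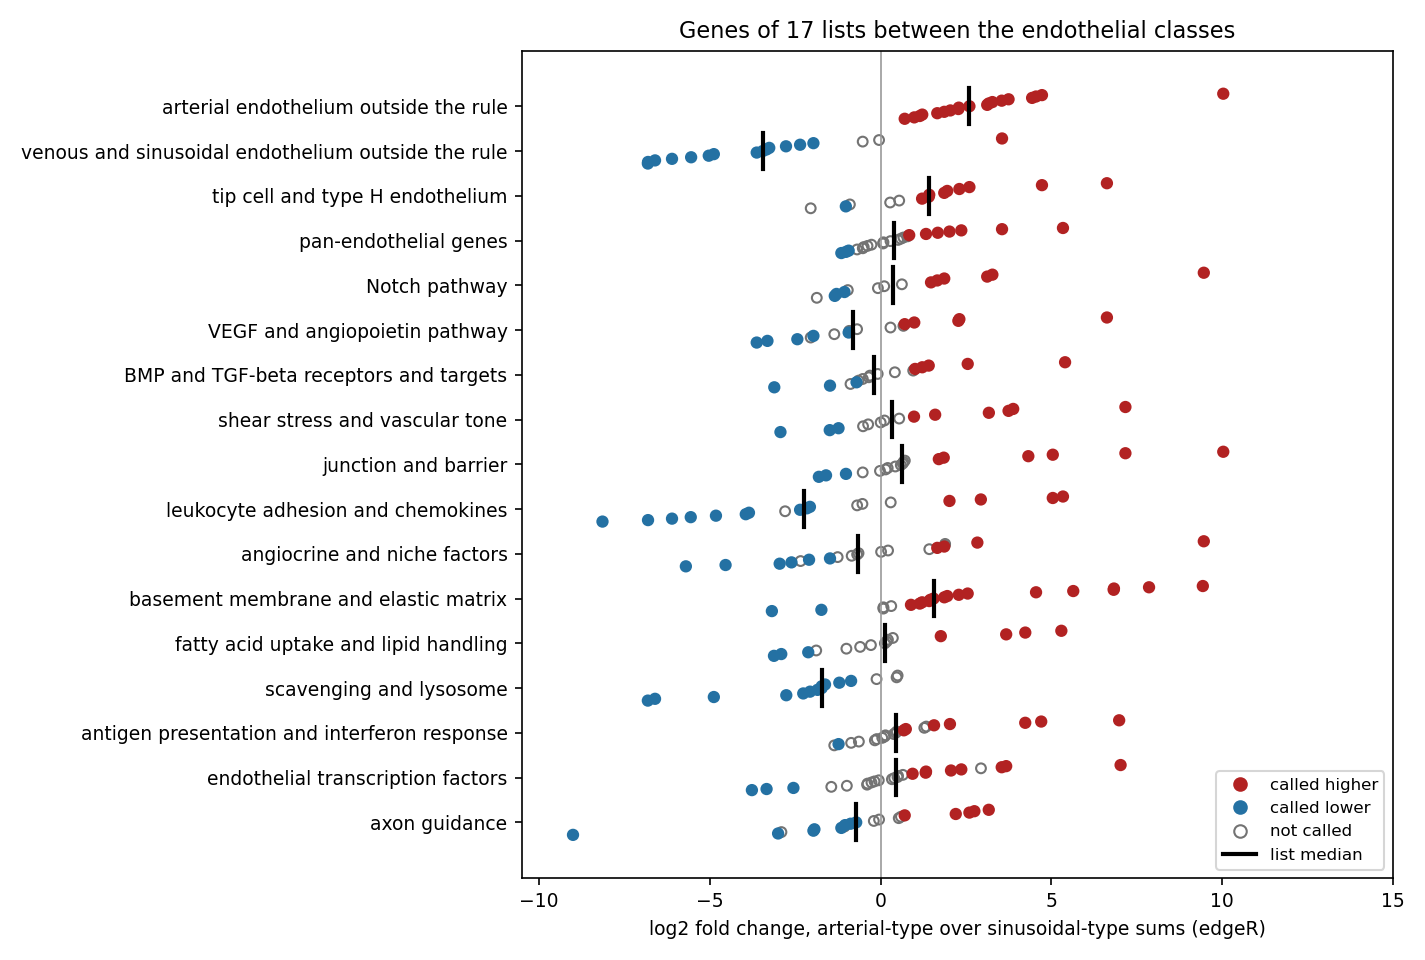
edgeR log2 differences (arterial-type minus sinusoidal-type) of the tested genes in 17 lists, 1 point per gene. Filled points were called at an adjusted p under 0.05, open points were not, and black bars mark list medians, which run from 2.60 for arterial genes to −3.45 for venous and sinusoidal genes.

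Niche and angiocrine factors, the signals that vessels send to the cells around them, gave 4 higher and 6 lower calls of 20 against sinusoidal-type cells, with a median of −0.67, and 7 and 10 with the mouse as a block. Without mixed cells 7 were higher and 5 lower, with a median of 0.06. Pdgfb was higher in members, at 183 and 221 CPM against 31.8 and 21.4 (2.83 ± 0.26, adjusted p = 0.000689). Angptl4, an inhibitor of lipoprotein lipase, was lower, at 18.7 and 42.3 CPM against 736 and 606, as was Igfbp4, a binding protein of insulin-like growth factors, at 519 and 793 CPM against 2543 and 2718. The gene used for the sort, Cxcl12, and Kitl were not called in the fit with every cell. Cxcl12 was at 954 and 1077 CPM in members, 1129 and 1926 in sinusoidal-type cells, 8471 and 8278 in reticular cells and 385 and 602 in blood cells. The difference between the endothelial classes was −0.69 ± 0.27 on the log2 scale (adjusted p = 0.123, or 0.00321 with the mouse as a block). Without mixed cells it was 1.27 (adjusted p = 0.00575), with members at 943 and 935 CPM and sinusoidal-type cells at 459 and 274. Without cells with 3 or more reticular UMIs it was 3.15 (adjusted p = 8.87e-06), at 915 and 894 CPM against 130 and 45.6, the latter from 16 and 2 UMIs in 10 and 6 cells. The level in members thus moved little, while the sinusoidal-type level fell and the direction of the difference turned. Leaving out 1 sum at a time gave adjusted p from 0.0112 to 0.526.

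Kitl was at 615 and 540 CPM in members against 79.5 and 319 in sinusoidal-type cells (1.43 ± 0.52, adjusted p = 0.107, or 0.000349 with the mouse as a block). It was called higher in members at 2000 UMIs per cell (adjusted p = 0.00987) and without mixed cells, at 633 and 556 CPM against 57.0 and 26.3 (3.69, adjusted p = 6.99e-06). Without the sinusoidal-type sum of Mouse #2 the difference was 2.78 (adjusted p = 0.000932), and without that of Mouse #1 it was 0.75 and not called (adjusted p = 0.0734). Reticular cells had 1068 and 1121 CPM, and blood cells 45.3 and 68.4. At 2000 UMIs per cell, Kitl was found in 67.8% and 62.0% of members, in 20% and 25% of sinusoidal-type cells and in 4.50% and 4.23% of blood cells. Members were above both in both mice. In barcodes with 1 to 100 UMIs, which hold mostly free RNA, Kitl was at 500 and 581 CPM. How much of the members' Kitl level is free RNA was not tested.

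The eGFP transcript of the sorted allele was at 3574 and 3463 CPM in members, 1584 and 2741 in sinusoidal-type cells and 12143 and 11481 in reticular cells. The difference between the endothelial classes was 0.60 ± 0.26 (adjusted p = 0.158, or 0.00218 with the mouse as a block). The call passed without the members of either mouse (0.0417 and 0.0249) and without the sinusoidal-type sum of Mouse #2 (0.0113). It did not pass without that of Mouse #1, where the difference was 0.25 (adjusted p = 0.438). Without mixed cells, sinusoidal-type cells fell to 826 and 458 CPM while members stayed at 3569 and 3361, a difference of 2.35 (adjusted p = 7.7e-05). eGFP was found in 90.1% and 89.8% of thinned members and in 14.7% and 19.9% of thinned blood cells, which give the background of free RNA. Cxcl12 was found in 71.1% and 75.0% of thinned members and in 18.5% and 26.1% of thinned blood cells. Members were therefore above the background for both transcripts in both mice. In barcodes with 1 to 100 UMIs, which hold mostly free RNA, eGFP was at 3311 and 3461 CPM and Cxcl12 at 3785 and 3614. How much of the members' own level is free RNA was not tested.

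The tdTomato transcript was at 115 and 106 CPM in members, 116 and 220 in sinusoidal-type cells, 760 and 1033 in reticular cells and 48.4 and 104 in blood cells. It was found in 15.7% and 17.6% of thinned members against 9.0% and 10.4% of thinned blood cells, and its level in members of Mouse #2 was close to that of blood cells. Between the endothelial classes its difference was −0.71 ± 0.30 (adjusted p = 0.15, or 0.0484 with the mouse as a block and 0.00739 without the sinusoidal-type sum of Mouse #1). It was −0.14 without the sinusoidal-type sum of Mouse #2 (adjusted p = 0.719) and turned to 0.89 without mixed cells (adjusted p = 0.0749). No UMI of the Cre transgene was counted in members of either mouse, against 12.8 and 18.1 CPM in reticular cells.

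**Figure D4:**
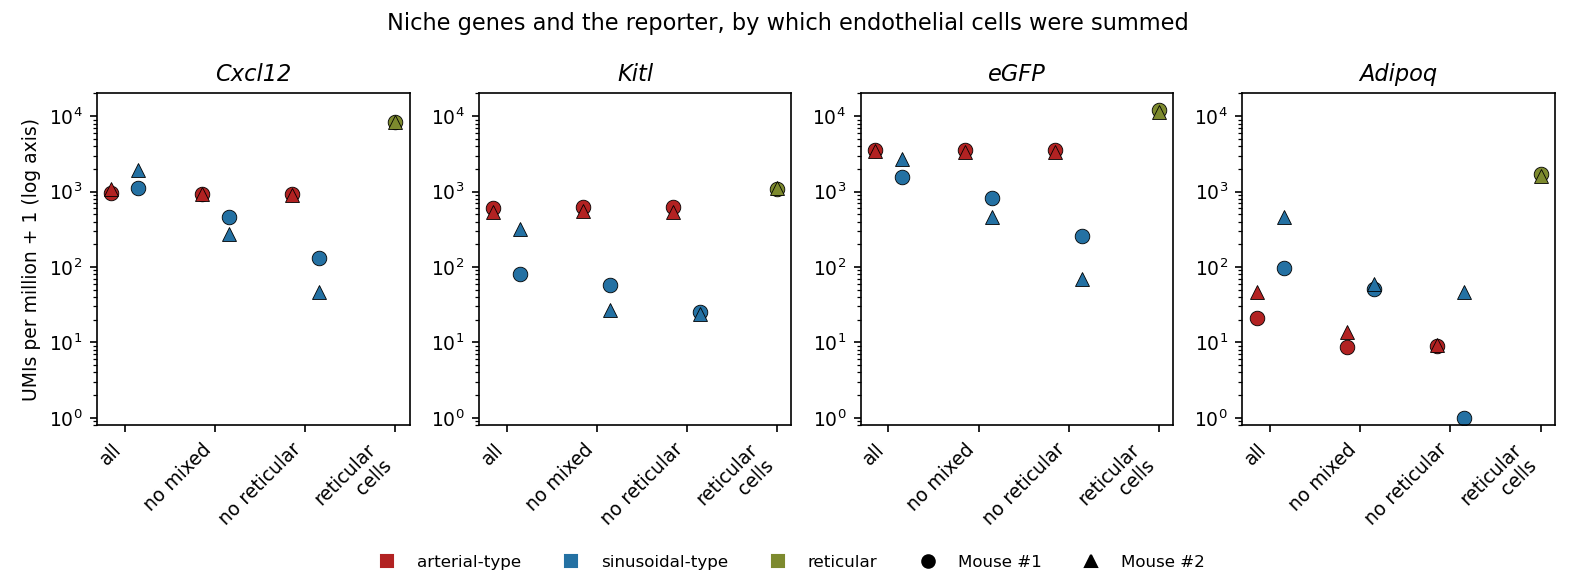
Cxcl12, Kitl, eGFP and Adipoq (CPM plus 1, log axis) in arterial-type and sinusoidal-type sums of each mouse with all cells, without mixed cells and without cells with 3 or more reticular UMIs, beside reticular cells. Arterial-type Cxcl12, Kitl and eGFP stay near 1 level, arterial-type Adipoq falls from 20.1 and 46.2 to 8.04 and 8.37, and sinusoidal-type Cxcl12 falls from 1129 and 1926 to 130 and 45.6.

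The second comparison set members against reticular cells, the most numerous stromal cells of the sort, taken as 4141 cells with both Adipoq and Lepr UMIs and no Cdh5 UMI. Of 12784 genes tested, 2777 (21.7%) were called higher in members and 2942 (23%) lower, 5719 in all (44.7%), with a median of −0.08. The counts of the lists below are to be read beside these shares. Both classes were cut by expression in the same cells, members by endothelial genes and reticular cells by Adipoq and Lepr without Cdh5. Higher endothelial and lower reticular genes in members therefore go with the cut. The largest positive differences were genes of endothelium. Tmem252 and Wscd1 were at 52.2 and 74.6 and at 30.8 and 40.9 CPM in members and at 0 in reticular cells, at least 1173-fold and 663-fold higher. Sox17 had a ratio of 4783 (counting interval 1862 to 17586) over 4 reticular UMIs. Adgrl4, an adhesion receptor of vessels, had a ratio of 4835 (1648 to 23495) over 3 UMIs, and Robo4, a guidance receptor of endothelium, a ratio of 5898 (1051 to 233667) over 1 UMI. Ptprb was at 1500 and 1248 CPM against 0.31 and 0.36 (11.88 ± 0.23, adjusted p = 1.57e-05). The 6 largest negative differences were those of Ccl19, Psd4, Cbln2, Wnt11, Crygs and Fam110b, each at 0 in members. Ccl19, a chemokine that draws lymphocytes and dendritic cells, was at 52.8 and 67.7 CPM in reticular cells and at least 62.6-fold lower in members.

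All 22 shared endothelial genes were called higher in members than in reticular cells, with a median of 8.70, and none of the 10 tested reticular markers was. All 10 were lower, with a median of −4.66. These directions go with the way the 2 classes were cut and are no check of the label. Pecam1 was at 990 and 989 CPM against 4.88 and 5.08 (7.57 ± 0.16). Junction genes gave 15 higher and 2 lower calls of 18 (median 5.21), and endothelial transcription factors 19 and 2 of 26 (2.60, with 21 and 1 under the block). The arterial list gave 17 and 1 of 20 (4.14), genes of vascular tone 13 and 1 of 17 (2.16, with 2 lower under the block), and basement membrane genes 13 and 4 of 21 (1.53). Pdgfb, which recruits mural cells to vessels, was at 183 and 221 CPM in members against 0.05 and 0.14 in reticular cells, a log2 difference of 10.70.

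Niche factors went the other way, with 7 of 23 higher in members, 13 lower and a median of −2.76. Cxcl12 was lower in members by −3.10 ± 0.13 (adjusted p = 5.67e-05) and eGFP by −1.80 ± 0.10 (adjusted p = 0.00013). Kitl was lower by −0.98 ± 0.13 (adjusted p = 0.00238), a call lost in 1 fit over all 3 classes (adjusted p = 0.139). Il7, a growth factor of lymphocytes, was at 1.34 and 6.61 CPM in members and at 140 and 140 in reticular cells. Angpt1, Vegfa, Csf1, Igf1 and Vcam1 were lower in members by 3.45 to 5.97 on the log2 scale. Angpt1, Vegfa and Vcam1 belong to other lists. The niche factors named here were among the lower ones, whereas Pdgfb of the same list was higher in members, as given above. Leukocyte adhesion genes gave 7 higher and 9 lower calls of 16 (median −1.03), and cell division genes 10 higher and 0 lower of 18 (1.04), or 7 and 2 without mixed cells. Of the marker lists of other cells, osteoblast genes gave 0 higher and 7 lower calls of 10, blood genes 0 and 2 of 9 (6 lower without mixed cells), megakaryocyte genes none of 3 and lymphatic genes 2 higher of 2. The remaining lists had medians between −0.51 and 3.50. The mural marker Rgs5 was called higher, yet 1 cell held 97.8% of its UMIs in members of Mouse #1, and the difference was −0.32 and not called without mixed cells (adjusted p = 0.686).

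Members differed among themselves in a way both mice shared. The values that follow describe cells, which share their mouse and differ in depth, and genes were picked for them after their values were seen. Over 121 and 108 members, Stmn2 and Gpihbp1 had Spearman correlations of −0.51 and −0.51 in UMIs per 10000. Stmn2 went with Fn1, fibronectin, at 0.47 and 0.60 and with Gja4 at 0.46 and 0.40, and against Emcn, a sialomucin of veins and capillaries, at −0.40 and −0.47. Gpihbp1 went with Plvap at 0.62 and 0.52. Gja5 went with Vwf at 0.53 and 0.53 and with Bmx at 0.55 and 0.37.

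Stmn2 without Gpihbp1 was found in 43 and 38 members, Gpihbp1 without Stmn2 in 35 and 40, both in 31 and 21, and neither in 12 and 9. The first kind had median depths of 8391 and 12587 UMIs and the second of 11076 and 10637, so neither was the deeper in both mice. At 2000 UMIs per cell, members with both fell to 9 and 6 and those with neither rose to 39 and 37, which shows how far these classes depend on depth.

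Mgp, Bmx, Jag1, Fn1, Gja5 and Eln were picked for higher levels in the Stmn2 cells. Mgp was at 840 and 445 CPM in them against 4.46 and 14.6 in the Gpihbp1 cells. A single Stmn2 cell of Mouse #2 held 147 of the 223 Mgp UMIs, and without it the level there was 154 CPM. Bmx was at 268 and 199 CPM against 46.8 and 34.7, and Jag1 at 291 and 255 CPM against 35.7 and 49.3. Fn1 was at 755 and 896 CPM against 176 and 183, and Gja5 at 147 and 291 CPM against 62.4 and 34.7. Elastin, from Eln, was at 336 and 309 CPM against 125 and 113.

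Cd300lg, Plvap, Rbp7, Col15a1 and Aplnr were picked for higher levels in the Gpihbp1 cells. Cd300lg, a receptor of capillary endothelium, was at 301 and 228 CPM against 6.38 and 39.9 in the Stmn2 cells. Plvap was at 1474 and 1079 CPM against 408 and 397, Rbp7 at 669 and 279 CPM against 181 and 63.8, and Col15a1 at 207 and 367 CPM against 46.8 and 87.8. Aplnr, the apelin receptor, was at 125 and 29.2 CPM against 0 and 0.

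Other genes of arteries and of the niche did not divide these cells in the same way. Efnb2 was at 534 and 622 CPM in the Stmn2 cells and at 555 and 520 in the Gpihbp1 cells. Dll4 was at 217 and 170 CPM against 172 and 164, and Ly6c1 at 2355 and 1522 CPM against 2227 and 1674. Cxcl12 was at 812 and 1145 CPM against 1095 and 1201, Kitl at 559 and 553 against 662 and 537, and eGFP at 3382 and 4038 against 3250 and 2700. The values of the mice overlapped between the 2 kinds of cell for each of these 6 genes but eGFP. Within each mouse, eGFP and Dll4 were higher in the Stmn2 cells and Cxcl12 was lower. These log2 differences were small in 1 mouse each, at 0.06 for eGFP in Mouse #1 and 0.05 for Dll4 and −0.07 for Cxcl12 in Mouse #2. Efnb2, Ly6c1 and Kitl differed in direction between the mice.

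**Figure D5:**
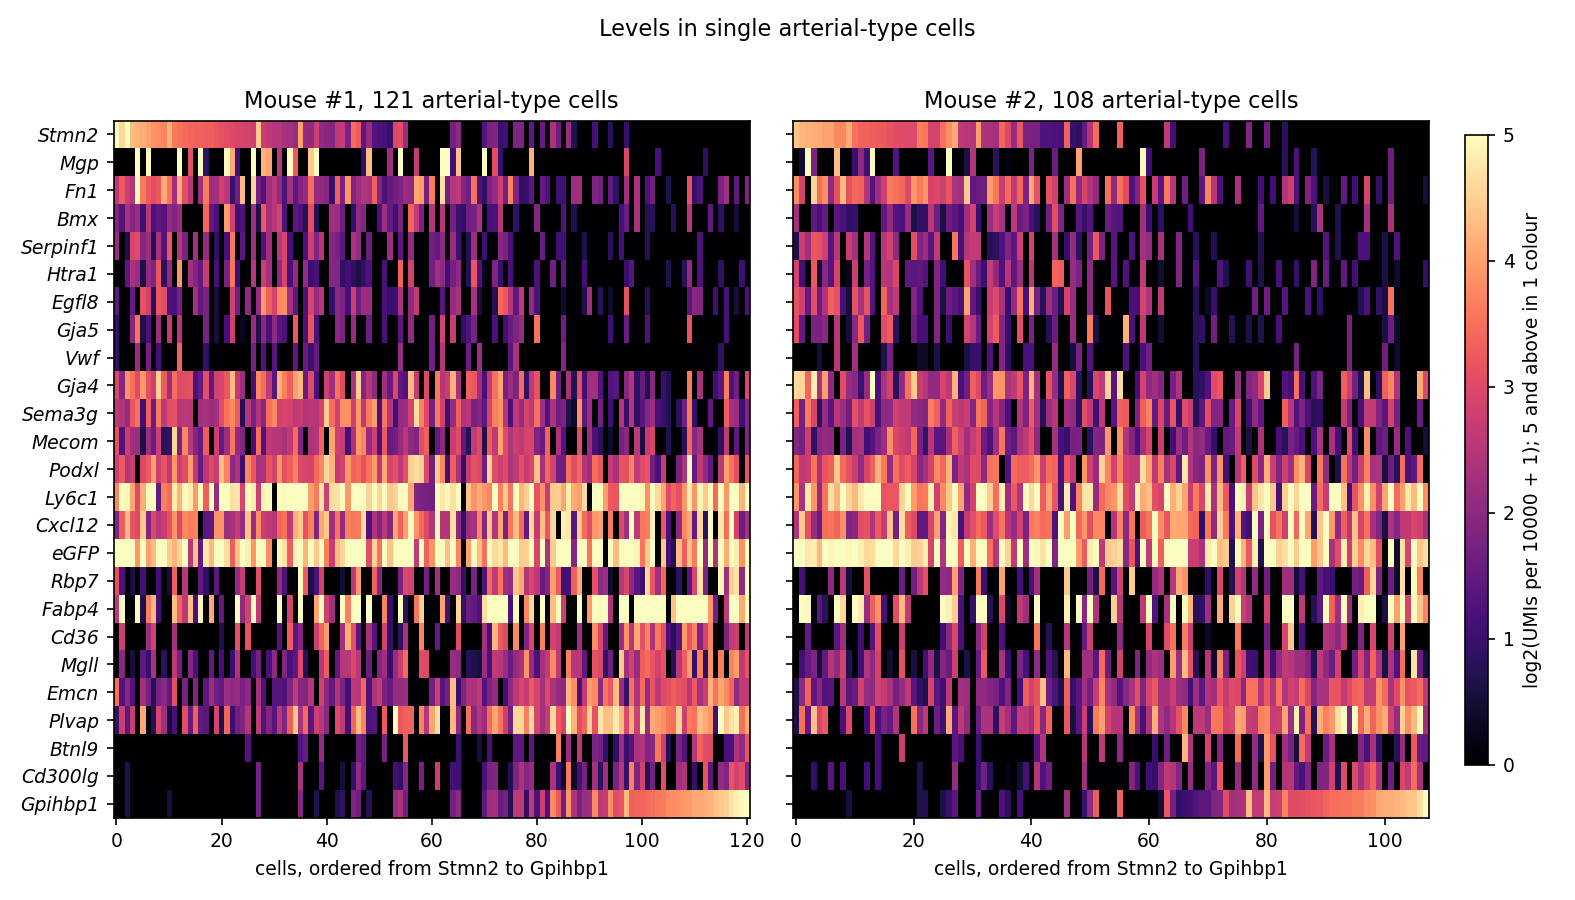
Heat map of 25 genes in the arterial-type cells of each mouse, coloured by log2(UMIs per 10000 plus 1), with cells ordered from high Stmn2 to high Gpihbp1. Bmx and Fn1 fill the Stmn2 end in both mice, Plvap and Cd300lg the Gpihbp1 end, and Ly6c1 is found along the whole order, though not in every cell.

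Immediate early genes varied between members along another line. Fos had a median of 1.41 and 1.38 UMIs per 10000 and a value at the 90th percentile of 57.7 and 44.7. It went with Egr1 at Spearman correlations of 0.72 and 0.61 and with Jun at 0.63 and 0.62, but with Stmn2 at only −0.07 and 0.13. Cd36 and Fabp4, which take up and carry fatty acids, went together at 0.69 and 0.68. Cxcl12 and eGFP had medians of 7.98 and 8.24 and of 24.1 and 24.9 UMIs per 10000.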

How the data were processed

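The authors sequenced 1 library per mouse and made the deposited matrices of UMI counts per gene and barcode with Cell Ranger on mm10, and Seurat is named in their processing notes. The version of the gene annotation is not given in the sources used here, and symbols were taken from the deposited feature lists. The counts are not normalized. The members, the 26 gene lists and the alternatives were chosen with earlier results of these data known. Cells were kept, classed and summed per mouse and class in Python 3.11.15. No doublet caller was run, and cells with UMIs of other types were left out as alternatives instead. Sums were tested with edgeR 4.0.16 (R 4.3.3) by glmQLFTest after TMM scaling and filterByExpr, with Benjamini-Hochberg adjustment over all tested genes and no block. The 10 genes of the rule, and Adipoq and Lepr against reticular cells, stayed in library sizes but out of the tests. Standard errors were derived from the fitted log2 difference and its quasi-likelihood F statistic, so they restate that test. The fit was tested on simulated counts. Named genes were the 12 largest called differences in each direction against sinusoidal-type cells and the 6 largest against reticular cells, with at least 50 UMIs in the higher class, leaving out mitochondrial, ribosomal protein and reporter features, plus up to 4 members per list, the rule's genes, Cxcl12, Kitl and the reporters. Mgp, Gpihbp1, Fabp4, Vcam1, Bmx, Cd36 and the genes of the split among members were also named after their values were seen. The classes compared come from the same mouse, so the mouse pairs them. Differences between the mice in 1 class correlated across genes with those in the other class at 0.146 for the first comparison and 0.11 for the second. Thinning drew 2000 UMIs per cell. UMIs reduce but do not remove amplification error, and intervals cover counting error only. DESeq2 1.42.0 was an alternative. A gene that the naming rule selects is not reported here.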

Additional observations from a re-analysis of the deposited data

How the results depend on the processing

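The calls against sinusoidal-type cells numbered 1561 (703 higher, 858 lower). DESeq2 gave 996 and 416 higher, thinning each cell to 2000 UMIs gave 592 (267 higher, 325 lower), no filter on low counts gave 520 (255 and 265), and leaving out cells with 3 or more reticular UMIs gave 876 (445 and 431). Thinning tests fewer genes on fewer UMIs and dropping the filter tests more genes. Without mixed cells, a step chosen after the data were seen, there were 1281 calls (607 higher, 674 lower). The remaining alternatives, which were DESeq2 size factors, stricter cell limits, a margin of 3 UMIs and 1 fit over 3 classes, gave 1555 to 1982. The calls against reticular cells, 5719 in the fit reported, fell to 3180 with thinned cells (1532 higher, 1648 lower) and were 5879 without mixed cells. The cause of these changes was not otherwise tested.

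Leaving out a whole mouse leaves no residual degrees of freedom, so 1 of the 4 sums was left out at a time, also a step chosen after the data were seen, and the lone sum was taken to vary like the other class. The calls against sinusoidal-type cells then ran from 1231 to 1384 (560 to 632 higher, 666 to 779 lower). Against reticular cells they were 3567 without the reticular sum of Mouse #1 and 3455 without that of Mouse #2 (1662 to 1695 higher, 1793 to 1872 lower), and 5189 to 5338 without a sum of members (2476 to 2487 higher, 2702 to 2862 lower).

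With the mouse as a replicate block there were 2129 calls against sinusoidal-type cells (953 higher, 1176 lower) and 5180 against reticular cells (2508 and 2672). Among the named genes, the block added calls for Plvap, Tagln, Prox1, Cxcl12, Kitl, eGFP, tdTomato, Alpl, Bglap, Cd36, Esm1, Notch1, Tek and Top2a against sinusoidal-type cells and ended that of Rgs5 against reticular cells (adjusted p = 0.0729). It changed no other call of the named genes. Other members of the lists also changed call with the block. This moved the counts of the lists beside which it is given and of some others, such as the Notch list (7 higher and 4 lower).

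The mean share of endothelial cells that were arterial-type, 80.3%, was 75.3% when the rule was applied after thinning, 91.9% without cells with 3 or more reticular UMIs and 85.8% without mixed cells. Other limits gave 78.5% to 81.9%, and the single mice 78.3% and 82.3%.

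Over all alternatives, the outcome for the named genes was unchanged in 2773 repeats against sinusoidal-type cells and in 2062 against reticular cells. The call was lost in 105 and 11 repeats and gained in 59 and 17. Repeats on a single mouse have no p-value and count as unchanged by direction alone. A difference not called in either fit counts as unchanged whatever its sign. Some differences changed sign. Without cells with 3 or more reticular UMIs the log2 difference from sinusoidal-type cells was 1.14 for Jun, 0.19 for Gas6, 7.63 for Ebf3, 6.63 for Mmp13, 0.64 for Col1a1 and 3.15 for Cxcl12. Without mixed cells it was 0.31 for Col1a1, 1.27 for Cxcl12 and 7.39 for Alpl. Against reticular cells, Myh11 turned to −8.37 under both steps and Cd79a to −2.59 without mixed cells, while Rgs5 was −0.40 and −0.32 under the same steps, −0.62 in Mouse #2 alone and 5.28 in Mouse #1 alone. Fitted differences of genes with no UMI in a class depend on the prior count. Depth limits the sinusoidal-type sums most, at 440084 and 467296 UMIs against 1493827 and 1514084 for members, and 16 sinusoidal-type cells remain under the strictest of these steps.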
